A study of Mus musculus with 25 samples.

Results

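Neurons and astrocytes sorted from the brains of non-transgenic mice were compared gene by gene, in 14 of the 25 libraries of the study. The 8 neuron libraries and 6 astrocyte libraries were taken by their labelled source, non-Tg neuron and non-Tg astrocyte. The mice were 6 months old and were littermates of mice carrying the hMAPT-P301S transgene, a human tau gene with a mutation that causes frontotemporal dementia. They carried no transgene themselves and received no treatment named in the labels. Neurons were sorted as NeuN+ cells, where NeuN is the protein product of Rbfox3, and astrocytes as Gfap+ cells, where Gfap is an intermediate filament protein. The sort on Gfap takes the astrocytes that hold this protein, so astrocytes without it may be missing.  Whether each library holds 1 animal or a pool is not stated, nor whether neuron and astrocyte libraries share animals, so the p-values reflect the spread among these libraries, which may be technical.

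Neurons signal through voltage-gated channels and release transmitter at synapses, where active zone proteins hold the vesicles and scaffold proteins hold the receptors on the other side. Astrocytes take up the released glutamate and GABA and the potassium that leaves firing neurons, convert glutamate to glutamine, store glycogen, and make much of the cholesterol of the brain. Many of these tasks are done in both cell types by different members of the same gene family.

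Total counts ran from 1245964 to 4453555 per library, so that 3 counts, used here as a detection floor, stood for 0.674 to 2.41 CPM (counts scaled to 1000000 per library). Malat1, a nuclear non-coding RNA, took 23.1% ± 1.64 (SD, n = 8) of the counts in neuron libraries and 32.95% ± 1.86 (SD, n = 6) in astrocyte libraries (p = 0.000666 by a 2-sided exact permutation test, and 0.00167 after adjustment over 5 measures). The mitochondrially encoded genes took 1.11% ± 0.349 (n = 8) and 4.04% ± 1.52 (n = 6; exact permutation p = 0.000666, adjusted p = 0.00167). Here 0.000666 is the smallest p that 8 against 6 libraries can give, and neither measure overlapped between the groups. At an equal depth of 1000000 counts, 17979 ± 465 genes (n = 8) were detected in neurons and 16705 ± 1045 (n = 6) in astrocytes (exact permutation p = 0.0107, adjusted p = 0.0133). Per the labels, typical yields were 200 to 300 ng of RNA from neurons and 2 to 5 ng from astrocytes, and neurons were pelleted at 2600 rcf and other cells at 6600 rcf. The part of yield and handling in any difference below was not tested, and they cannot be told apart from cell type. Neuron libraries 5 and 8 have sample identifiers in another range than the other neuron libraries. They also gave 14 of the 23 single neuron values that stood apart from the rest of their group among the genes named below, so counts are also given without them.

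The markers followed the labels. Rbfox3 ran from 54.5 to 121 CPM in neuron libraries (median 65.3) and from 1.53 to 13.4 in astrocyte libraries (median 3.70). Syt1, the calcium sensor of synaptic vesicles, ran from 394 to 538 CPM in neurons and from 19.0 to 42.9 in astrocytes. Slc1a2, the main astrocyte glutamate transporter gene, ran from 218 to 468 CPM in neurons and from 10525 to 18844 in astrocytes. The groups overlapped in none of the 3 genes. The water channel gene Aqp4 ran from 2.25 to 17.4 CPM in neurons and from 733 to 1345 in astrocytes, and Gfap itself from 0.570 to 9.27 and from 94.5 to 395. Of 15 neuron markers 14 could be tested and 13 were higher in neurons, and of 16 astrocyte markers 15 could be tested and all 15 were lower.

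Markers of other cells moved with the groups in part. The summed level of 9 oligodendrocyte markers was 42.1 to 93.5 CPM in neuron libraries and 210 to 564 in astrocyte libraries, and that of 6 oligodendrocyte precursor markers 0 to 3.73 and 86.5 to 169. In neuron libraries Opalin and Olig1 were at 0. The 8 mural and fibroblast markers summed to 15.8 to 36.6 CPM and 104 to 226. The 9 microglia and myeloid markers summed to 14.7 to 148 and 32.9 to 87.1 CPM, and 0 of the 5 tested were called. The 5 erythrocyte markers summed to 11.4 to 37.1 CPM in neuron libraries and 1.53 to 20.1 in astrocyte libraries, and the 1 that could be tested was higher in neurons (1.36). Hba-a1 and Hbb-bt were at 0 in both groups and Hbb-bs in astrocyte libraries. The 8 endothelial markers summed to 8.71 to 19.0 and 0.911 to 37.4 CPM, with the 1 tested higher in neurons (2.42). The 8 ependymal markers summed to 110.5 to 182.7 and 41.9 to 235 CPM, with 1 of the 4 tested higher and 2 lower. Neuron markers were not absent from astrocyte libraries, where the 15 summed to 642 to 872 CPM, against 2686 to 3192 in neurons. Astrocyte markers summed to 401 to 776 CPM in neuron libraries, against 17779 to 28536 in astrocytes. The part of these other cells in the differences below was not tested, and in sorted bulk samples fewer cells of a type and less RNA per cell cannot be told apart.

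Of 11957 genes with enough counts to test, 6681 (55.9%) differed between the cell types at an adjusted p under 0.05 (edgeR quasi-likelihood F test, Benjamini-Hochberg adjustment). 3214 (26.9%) were higher in neurons and 3467 (29.0%) were lower. These shares are the background against which each family below is read. The family lists were not cleared of marker genes, so some of their counts repeat the markers. Examples are Aqp4 and Gja1 among connexins, pannexins and aquaporins, and Neurod2 and Neurod6 among NeuroD genes. Without neuron libraries 5 and 8 the counts were 2901 and 3381. Differences are given as log2 differences, neurons minus astrocytes, with the standard error (SE), and their median over all genes tested was -0.08. Of the called genes, 617 were higher and 520 lower by at least 4 on this scale, which is 16-fold. All neuron libraries lay above all astrocyte libraries for 17.1% of tested genes, and below them for 16.0%. In the 11 libraries of the hMAPT-P301S littermates (6 neuron, 5 astrocyte), tested by themselves, 6254 of the 6681 genes could be tested, and 3981 (63.7%) were called in the same direction and 1 in the opposite one. There 41.2% of 11966 genes were called in either direction.

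The 12 genes higher in neurons with the smallest p, outside the marker lists, were led by a receptor, a non-coding RNA and a channel subunit. Ntrk3, the receptor of neurotrophin-3, ran from 546 to 712 CPM in neurons (median 625) and from 34.6 to 46.0 in astrocytes (median 40.3), a log2 difference of 3.93 (SE 0.15, edgeR adjusted p = 4.55e-14). Snhg11, a long non-coding RNA, ran from 7663 to 14718 CPM and from 108 to 262 (5.85, SE 0.23). Unc80, a subunit of the sodium leak channel that sets resting excitability, ran from 697 to 948 CPM and from 31.3 to 56.1 (4.14, SE 0.17). The groups lay apart in all of these, which were picked by their p in the same libraries. Meg3, an imprinted non-coding RNA, ran from 24153 to 47027 CPM in neurons and from 377 to 1114 in astrocytes (5.53, SE 0.26). Kcnk9, a tandem-pore potassium channel, showed the largest log2 difference of the 12, with 63.3 to 104 CPM in neurons and 0 to 1.05 in astrocytes, 8 counts in all (7.28, SE 0.34). Erc2, a presynaptic active zone scaffold, Cnksr2 and Dlg2, scaffolds of the postsynaptic density, and the transcription factor gene Myt1l differed by 5.13, 4.75, 3.70 and 5.02. Arpp21, an RNA-binding phosphoprotein of the cAMP pathway, the sodium channel Scn2a and the NMDA receptor subunit Grin2a completed the 12, at 3.40, 4.24 and 5.01.

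The 12 genes lower in neurons were a mixture of receptors, secreted proteins and enzymes. Lrp4, a membrane receptor known from the neuromuscular junction, ran from 2.24 to 5.60 CPM in neurons (median 3.86) and from 204 to 339 in astrocytes (median 228; -6.12, SE 0.23, edgeR adjusted p = 3.87e-14). Ptn, a secreted growth factor, and Ptprz1, the receptor phosphatase that binds it, were both among them. Ptn ran from 25.8 to 40.5 CPM and from 534 to 926, and Ptprz1 from 108 to 159 and from 1936 to 3278. Glul, glutamine synthetase, ran from 10.0 to 21.8 CPM in neurons and from 424 to 775 in astrocytes. Vegfa, the vascular growth factor, was at 26.2 to 38.6 and 394 to 622 CPM, and the groups lay apart in each of these genes. Gnao1 encodes the G protein subunit Gαo, long used as a neuronal protein. Its counts were lower in neurons, at 108 to 165 CPM against 1415 to 2026 (-3.67, SE 0.15). The others were Appl2, an endosomal adaptor (-4.64), Prex2, a Rac exchange factor (-4.54), Phka1, a subunit of phosphorylase kinase (-5.11), Utrn, utrophin (-4.52), the glypican Gpc5 (-4.66) and the lipid transfer protein gene Pitpnc1 (-4.07). In the plot of the 24 genes by library, no neuron point meets an astrocyte point of the same gene. Picking genes by the smallest p in these libraries favours this. Over all genes tested, the neuron libraries all lay above the astrocyte libraries for 17.1% and all below for 16.0%.

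**Figure D1:**
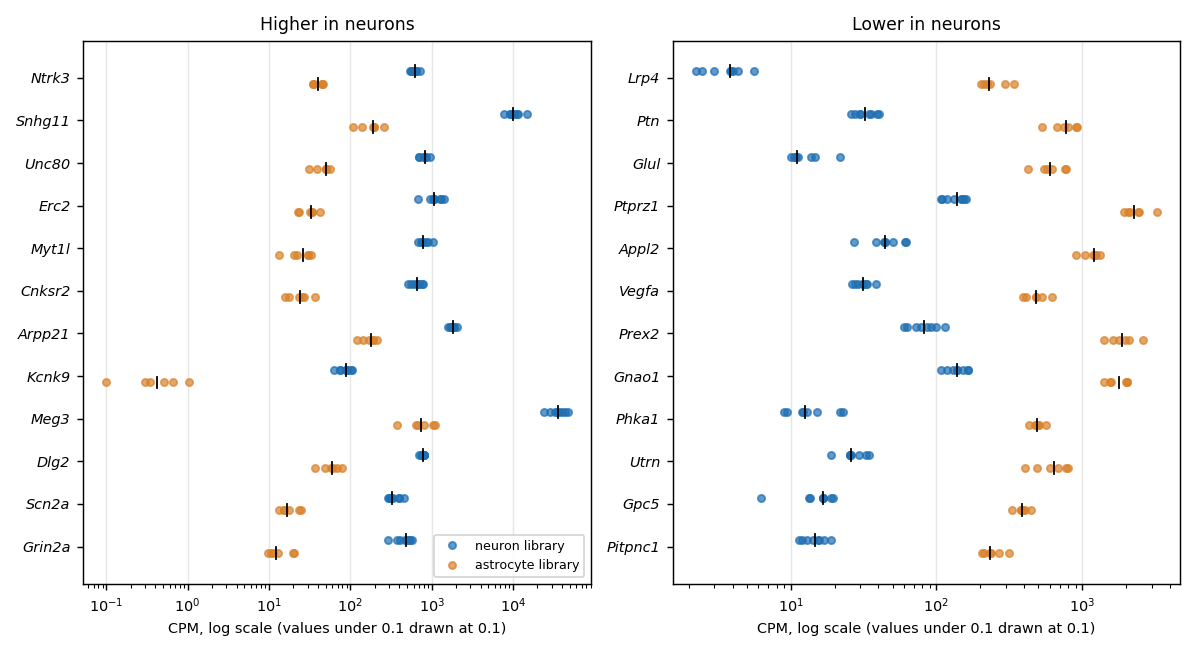
CPM of each library (log axis) for the 12 genes higher and the 12 genes lower in neurons with the smallest p, with a black bar at the median of the 8 neuron or 6 astrocyte libraries. Neuron and astrocyte points of a gene do not overlap, which the choice by smallest p favours, and Kcnk9 reaches 0 to 1.05 CPM in astrocytes.

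Transcription factor families had members on both sides. All 3 tested Id genes, inhibitors of basic helix-loop-helix factors, were lower, 6 of 7 Gli and Zic genes (median -3.03), all 3 Tead factors and co-activators (median -3.54), 3 of 4 NFI genes and 7 of 10 Stat and Irf genes. Id4 was at 0 to 3.99 CPM in neurons and 56.8 to 163 in astrocytes. Gli2 and Gli3, the effectors of Hedgehog, differed by -6.92 (SE 0.46) and -6.31 (SE 0.30), and the Hippo co-activators Yap1 and Wwtr1 by -3.54 and -4.26. 6 of 9 Sox genes were lower, with Sox9 at 0.686 to 6.27 and 166 to 253 CPM and Sox6 at -5.44. Sox11 was the exception and was higher in neurons (2.03, SE 0.34). Nuclear receptors had 15 of 27 members lower and 6 higher, and the orphan receptor Nr2e1, known from neural stem cells, was at -5.59.

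Activity-regulated and neuronal differentiation factors went the other way. All 3 Myt1 family genes were higher in neurons (median 3.61), all 3 NeuroD and neurogenin genes (median 3.71), and 5 of 6 Egr and Nr4a genes (median 2.999), which are induced by neuronal activity. Neurod6 was at 31.0 to 65.3 CPM in neurons and 0 to 4.08 in astrocytes. Nr4a3 and Egr3 differed by 4.21 (SE 0.42) and 3.37 (SE 0.48), with 22.9 to 61.3 and 14.6 to 62.1 CPM in neurons. In the Rfx family the members split: Rfx4 was at 0 to 12.9 CPM in neurons and 229 to 482 in astrocytes (-6.18, SE 0.38), while Rfx3 was higher in neurons (1.08, SE 0.15). Of 12 tested excitatory neuron markers 9 were higher in neurons and 3 lower (median 2.755). All 5 tested inhibitory neuron markers and 9 of 10 dentate granule markers were higher in neurons. The 3 excitatory markers that were higher in astrocytes are given here after their values were seen. Rorb, a nuclear receptor used as a marker of cortical layer 4, was at 3.42 to 10.6 CPM in neurons and 260 to 445 in astrocytes (-5.72, SE 0.28). Fezf2, a layer 5 factor, was at 6.84 to 21.6 and 43.4 to 90.2 CPM (-2.15, SE 0.25). Cux2 overlapped between the groups (-1.03, SE 0.36, edgeR adjusted p = 0.0202) and lost its call without astrocyte library 1 (edgeR adjusted p = 0.075). Of 289 Zfp zinc finger genes 47 were higher and 63 lower, and of 44 chromatin remodelling genes 8 were higher and 14 lower.

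Neuronal RNA-binding proteins were higher in neurons almost throughout. Of 15 tested Elavl, Nova, Celf and Rbfox genes, splicing and stability factors, 14 were higher in neurons with no overlap between the groups (median 3.01), against 17.1% of all genes. Rbfox1 was at 324 to 468 CPM in neurons and 10.0 to 25.8 in astrocytes, and Celf2 at 1679 to 2958 and 275 to 385. Nova1 was the exception, at 59.4 to 105 and 134 to 221 CPM (-0.98, SE 0.17). Qk and Msi2, RNA-binding proteins known from glia and neural progenitors, were lower in neurons by -3.00 (SE 0.20) and -3.47 (SE 0.17). Qk was at 124 to 289 CPM in neurons and 977 to 2348 in astrocytes. Among 19 named long non-coding RNAs 10 were higher and 5 lower. Neat1, the scaffold of nuclear paraspeckles, was at 2.04 to 7.26 CPM in neurons and 68.9 to 172 in astrocytes, and Rmst at 1.45 to 8.23 and 72.0 to 177. Malat1 itself was lower in neurons by -0.78 (SE 0.12). Over all annotated lncRNA genes, 403 of 998 tested were higher and 270 lower, and over protein-coding genes 2397 of 9821 and 2916.

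Guidance families differed among themselves. The list of Slit, Robo, netrin and Unc5 genes, taken by symbol, also held Slitrk genes, which are not Slit genes. Of its 17 tested members 14 were higher, all without overlap (median 3.82), and the Slitrk genes were not counted apart. Of 12 ephrins and Eph receptors 9 were higher (median 2.27). Slit3, a secreted repellent, was at 50.2 to 211 CPM in neurons and 2.04 to 7.29 in astrocytes, and Slit1 at 41.6 to 205 and 0 to 1.68. Epha7 was at 437 to 799 and 13.8 to 54.2 CPM. Slitrk2, itself no Slit gene, was the only lower member of the first list that passed the test (-1.60, SE 0.17). Ephb1 was lower too (-2.36, SE 0.34). Of 24 semaphorins, plexins and neuropilins 9 were higher and 10 lower (median 0.37), with the semaphorin receptor Plxna4 at 241 to 432 CPM in neurons and 21.3 to 41.3 in astrocytes, and Plxnb1 at 1.14 to 10.4 and 163 to 371.

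8 of 15 Notch pathway genes were lower in neurons and 1 was higher, 8 of 10 Hedgehog pathway genes were lower and 2 higher, and 16 of 26 Wnt genes were lower and 3 higher. Of 26 genes of the TGF-beta and BMP pathway 11 were lower and 7 higher (median -0.53). Notch1 was at 2.44 to 8.96 CPM in neurons and 81.1 to 195 in astrocytes, and Numbl, which opposes Notch, was higher in neurons (1.61, SE 0.29). The Hedgehog receptor Ptch1 was at 21.9 to 35.2 and 210 to 285 CPM. Disp2, a member of the Dispatched family named for releasing the Hedgehog ligand, was at 37.1 to 126 CPM in neurons and 0 to 12.8 in astrocytes (4.32, SE 0.53). The Wnt effectors Tcf7l2 and Daam2 differed by -6.26 (SE 0.33) and -6.56 (SE 0.40). Several growth factor receptors were lower in neurons, with Egfr at -4.49, Fgfr2 at -4.15, Bmpr1b at -4.58 and Ntrk2, the BDNF receptor, at -2.16. Nrg3, a ligand of the ErbB family, was at 115 to 206 CPM in neurons and 0.510 to 4.20 in astrocytes (5.63, SE 0.30).

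Genes of calcium release and lipid second messengers differed in both directions. Ryr2 and Ryr3, ryanodine receptors that release calcium triggered by calcium, were at 637 to 1813 and 379 to 1053 CPM in neurons and at 20.6 to 53.3 and 7.89 to 37.1 in astrocytes. Itpr2, the IP3 receptor known from astrocytes, was at 7.41 to 32.9 CPM in neurons and 340 to 682 in astrocytes (-4.43, SE 0.27). Of 12 phospholipase C genes, whose products make IP3, 9 were lower in neurons and 2 higher (median -1.66). Plcd4 was at 4.12 to 11.2 and 176 to 348 CPM, and the phospholipase-like gene Plcl2 was higher in neurons (4.60, SE 0.31). Of 22 diacylglycerol kinases and Ras and Rap exchange factors 14 were higher, but the cAMP-gated exchange factor Rapgef3 was at 0.570 to 5.04 CPM in neurons and 41.3 to 169 in astrocytes. Camk2a and Camk2b, subunits of the kinase of synaptic plasticity, differed by 2.21 (SE 0.26) and 4.45 (SE 0.39), and Camk2g by -2.64 (SE 0.18). The G protein subunit genes had 8 of 18 members lower and 4 higher, among the latter Gng2 (3.91, SE 0.38).

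Voltage-gated channels were mostly higher in neurons. Of 28 tested voltage-gated potassium channel genes 23 were higher in neurons and 3 lower (median 3.10), of 9 sodium channel genes 8 were higher and 0 lower (median 3.25), and of 19 calcium channel genes 15 were higher and 1 lower (median 3.35). Scn1a was at 160 to 226 CPM in neurons and 0.911 to 7.65 in astrocytes. Cacna1e, the R-type calcium channel, was at 1225 to 1601 and 21.8 to 75.7 CPM. The groups lay far apart in these genes. Kcna2 was one of the 3 exceptions, at 80.4 to 169 CPM in neurons and 427 to 547 in astrocytes (-1.95, SE 0.17), while the related channel Kcna1 was at 130 to 218 and 4.25 to 20.6. Kcnip3, a channel-interacting calcium sensor, was lower as well (-2.12, SE 0.25) and its paralogue Kcnip4 higher (4.48, SE 0.22).

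Inward rectifier genes lay on both sides. Kcnj3 and Kcnj6, which form channels gated by G proteins, were higher in neurons by 2.10 (SE 0.20) and 5.05 (SE 0.32). Kcnj10 and Kcnj16, which clear extracellular potassium, were lower by -6.13 (SE 0.36) and -6.23 (SE 0.34), with Kcnj10 at 1.63 to 13.1 and 306 to 551 CPM. 5 of 6 tested connexin, pannexin and aquaporin genes were lower, and the gap junction gene Gja1 was at 0.613 to 8.40 CPM in neurons and 487 to 1069 in astrocytes. Trpc6, a cation channel gated by diacylglycerol, was at 108 to 285 CPM in neurons and 0 to 3.35 in astrocytes (6.93, SE 0.38). The anion channel gene Ttyh1 went the other way, at 99.2 to 271 and 2284 to 3913 CPM.

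Transmitter receptors were mostly higher in neurons, with exceptions in each of the families named here. 12 of 18 ionotropic glutamate receptor genes were higher and 4 lower, 10 of 13 GABA receptor genes were higher and 3 lower, and 5 of 6 metabotropic glutamate receptor genes were higher and 1 lower. Grin2b and Grin2a were at 1216 to 1740 and 290 to 568 CPM in neurons, and at 171 to 272 and 9.69 to 20.3 in astrocytes. Grin2c, another NMDA receptor subunit, was at 0.686 to 20.2 CPM in neurons and 975 to 1182 in astrocytes (-7.24, SE 0.54). Per length, on the authors' normalized RPKM scale, the median of Grin2c in astrocytes was 22.2 and that of Grin2b in neurons 14.5. Gabrb1 and Gabrg1, GABA-A receptor subunits, were lower in neurons by -1.63 (SE 0.18) and -2.82 (SE 0.39). Peptide and purine receptors split evenly, 7 of 18 higher and 7 lower. The endothelin receptor Ednrb was at 0 to 2.80 CPM in neurons and 182 to 218 in astrocytes, and the neurotensin receptor Ntsr2 at 2.85 to 9.82 and 168 to 436. Sstr4, a somatostatin receptor, was at 6.84 to 51.0 CPM in neurons and 0 to 1.40 in astrocytes. The muscarinic receptor Chrm3 was higher in neurons (4.89, SE 0.53) and the adrenergic receptor Adra1a lower (-2.29, SE 0.42).

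Several lists of synaptic genes had most members higher in neurons. 22 of 30 active zone genes were higher and 0 lower, 22 of 27 postsynaptic scaffold genes were higher and 1 lower, and 11 of 14 synaptotagmins were higher and 1 lower. Ppfia2, a liprin of the active zone, was at 914 to 1508 CPM in neurons and 26.8 to 75.9 in astrocytes. The 2 members called lower in these 3 lists were Iqsec1 (-0.98, SE 0.20), whose groups overlapped, and Syt11 (-1.39, SE 0.17). Of 36 SNAREs and their regulators, which serve membrane traffic in all cells, 15 were higher and 6 lower. Stxbp5l was at 505 to 926 and 14.4 to 41.2 CPM, and Vamp5 had 5 counts over the 8 neuron libraries and 24.1 to 78.5 CPM in astrocytes. Genes for synapse-modulating proteins were listed because astrocytes secrete them, so lower levels in neurons are in part built into that list. Of its 15 tested members 13 were lower in neurons and 1 higher (median -4.22), with Sparcl1 at 77.0 to 174 and 1783 to 3071 CPM. Synaptic adhesion genes had both directions, 23 of 33 higher and 7 lower. Lrrtm4 was at 443 to 1296 CPM in neurons and 4.25 to 26.6 in astrocytes, and Tenm3 was lower in neurons (-1.66, SE 0.15).

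**Figure D2:**
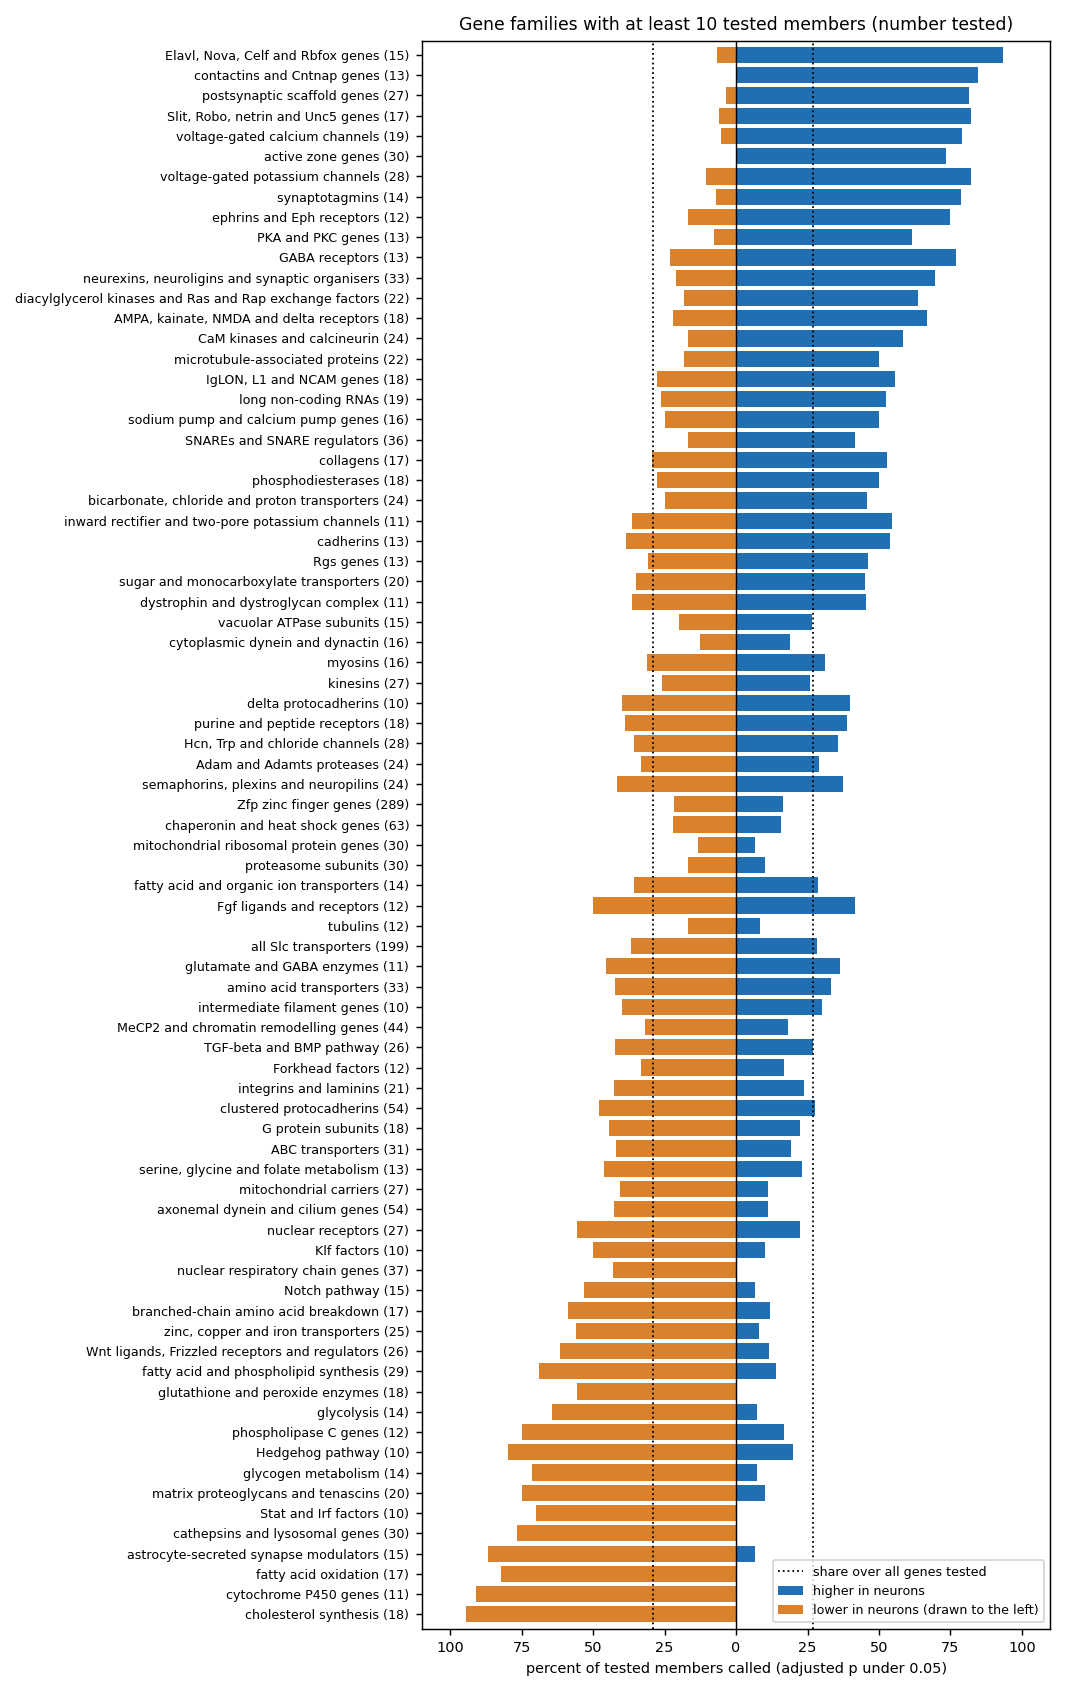
Percent of the tested members of each gene family called higher (right) or lower (left) in neurons at an adjusted p under 0.05, for families with at least 10 tested members, whose number is in brackets. Dotted lines mark the shares over all 11957 genes tested, 26.9% and 29.0%. RNA-binding proteins, contactins, the Slit list, voltage-gated potassium and calcium channels and several synaptic lists stand near the top. Cholesterol synthesis, cytochrome P450 genes, fatty acid oxidation, synapse modulators secreted by astrocytes and lysosomal genes stand at the bottom.

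Adhesion molecules split at the level of single families. 11 of 13 contactin and Cntnap genes were higher in neurons and 0 lower (median 3.94). Cntn3 was at 39.3 to 95.8 CPM in neurons and 0 to 2.75 in astrocytes, and Cntnap2 at 73.5 to 170 and 2.73 to 13.3. Cadherins had 7 of 13 higher and 5 lower, with Cdh9 at 118 to 177 and 0.304 to 5.03 CPM and Cdh19 at 0 to 2.24 and 66.8 to 232. Ncam1 and Ntm, cell adhesion molecules of the immunoglobulin family, were lower in neurons by -1.26 (SE 0.14) and -1.89 (SE 0.20), and Chl1 was higher by 3.48 (SE 0.20). Matrix genes lay on both sides. 15 of 20 proteoglycans and tenascins were lower (median -3.87), and tenascin-R, Tnr, was one of the 2 higher (1.94, SE 0.25). Of 21 integrins and laminins 5 were higher and 9 lower. Lama2, a laminin chain, was at 0.570 to 10.1 CPM in neurons and 364 to 560 in astrocytes, and the integrin Itga8 at 148 to 200 and 0 to 11.7. Collagens had 9 of 17 members higher in neurons and 5 lower. Col19a1 and Col25a1, collagens known from synapses, differed by 5.30 (SE 0.47) and 3.88 (SE 0.41), and Col11a2 by -5.87 (SE 0.43).

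The clustered protocadherins, which give neurons a surface identity, divided by cluster, a split seen only once the values were known. All 14 tested genes of the alpha cluster were higher in neurons (median 3.48, from 3.19 to 3.57), and all 22 of the gamma cluster were lower (median -2.66, from -3.12 to -2.06). Of the 18 genes of the beta cluster 1 was higher and 4 were lower (median -0.13). Pcdha11 was at 39.6 to 91.6 CPM in neurons and 2.06 to 12.9 in astrocytes, and Pcdhgb5 at 27.4 to 64.9 and 196 to 386. The alpha and gamma genes of a cluster share their last exons, and in the GENCODE vM21 annotation 48.6% of the exonic bases of Pcdhac2 and 44.8% of those of Pcdhga6 lie in other genes of the same cluster. The share was 31.5% for Pcdhgb5, and 83.2% and 53.4% for the separate entries of Pcdha11. Counts in shared exons cannot tell which first exon was used. How far the values of a cluster repeat 1 measurement was not tested, so they are not read as 14 or 22 separate results.

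**Figure D3:**
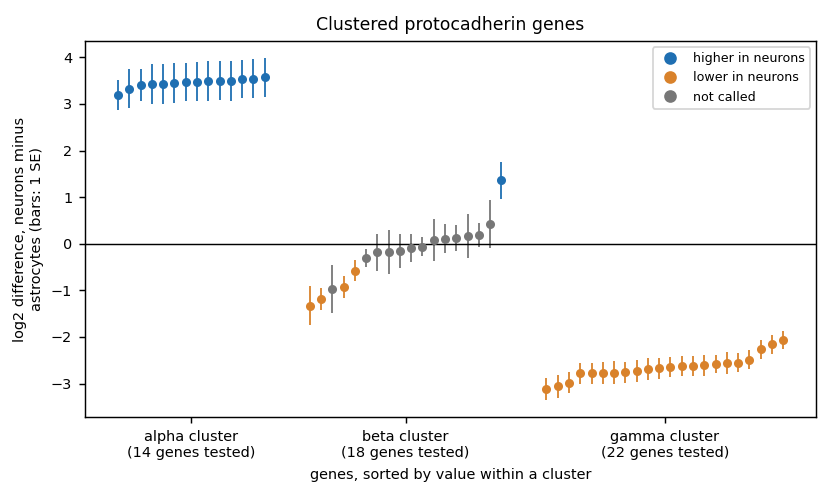
Log2 difference (neurons minus astrocytes) with 1 SE for each tested clustered protocadherin gene, sorted within the alpha, beta and gamma clusters. The 14 alpha genes lie between 3.19 and 3.57, the 22 gamma genes between -3.12 and -2.06, and the beta genes on both sides of 0.

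Pumps and carriers differed between members of the same family. Atp1b1 and Atp1b2, beta subunits of the sodium pump, differed by 1.40 (SE 0.17) and -5.22 (SE 0.24).

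38 pairs of related genes were chosen for textbook roles in the 2 cell types with earlier results of these data known. The counts of pairs therefore follow in part from the choice and are not a test. Some pairs hold marker genes, such as Atp1b2, Slc4a4 and Camk2a. Of the 38 pairs 16 had the first member higher and the second lower in neurons, and 0 had the reverse. In 9 pairs both genes were lower, in 2 both were higher, and in 11 at least 1 gene was not called or could not be tested. Glucose transporters Slc2a3 and Slc2a1 differed by 3.21 (SE 0.54) and -3.84 (SE 0.30), the bicarbonate transporters Slc4a10 and Slc4a4 by 3.98 (SE 0.27) and -3.10 (SE 0.17), and the lactate and pyruvate transporters Slc16a7 and Slc16a1 by 4.74 (SE 0.40) and -1.60 (SE 0.48). Slc16a1 overlapped between the groups, at 5.92 to 13.1 and 2.13 to 57.0 CPM. Grm5 and Grm3, metabotropic glutamate receptors, were at 374 to 912 and 6.16 to 16.0 CPM in neurons and at 19.5 to 33.1 and 164 to 265 in astrocytes. Ndrg4 and Ndrg2 differed by 2.11 (SE 0.27) and -6.59 (SE 0.33), and the neurexin gene Nrxn3 by 4.26 (SE 0.32).

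Some pairs did not divide. Fgfr1 (-2.63), Prex1 (-3.62) and Ttyh3 (-3.34) were lower in neurons together with Fgfr3, Prex2 and Ttyh1. Dmd, dystrophin, overlapped between the groups, at 1309 to 1768 and 1284 to 1844 CPM (0.05, SE 0.13, edgeR adjusted p = 0.757), while Utrn did not overlap. Other partners of dystrophin separated: Dtna, dystrobrevin alpha, was at -3.09 (SE 0.15) and the syntrophin Sntg1 at 5.04 (SE 0.34). Mapt, the tau gene of the mouse, overlapped too, at 29.1 to 100 CPM in neurons and 35.7 to 63.0 in astrocytes (0.20, SE 0.28, edgeR adjusted p = 0.57).

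**Figure D4:**
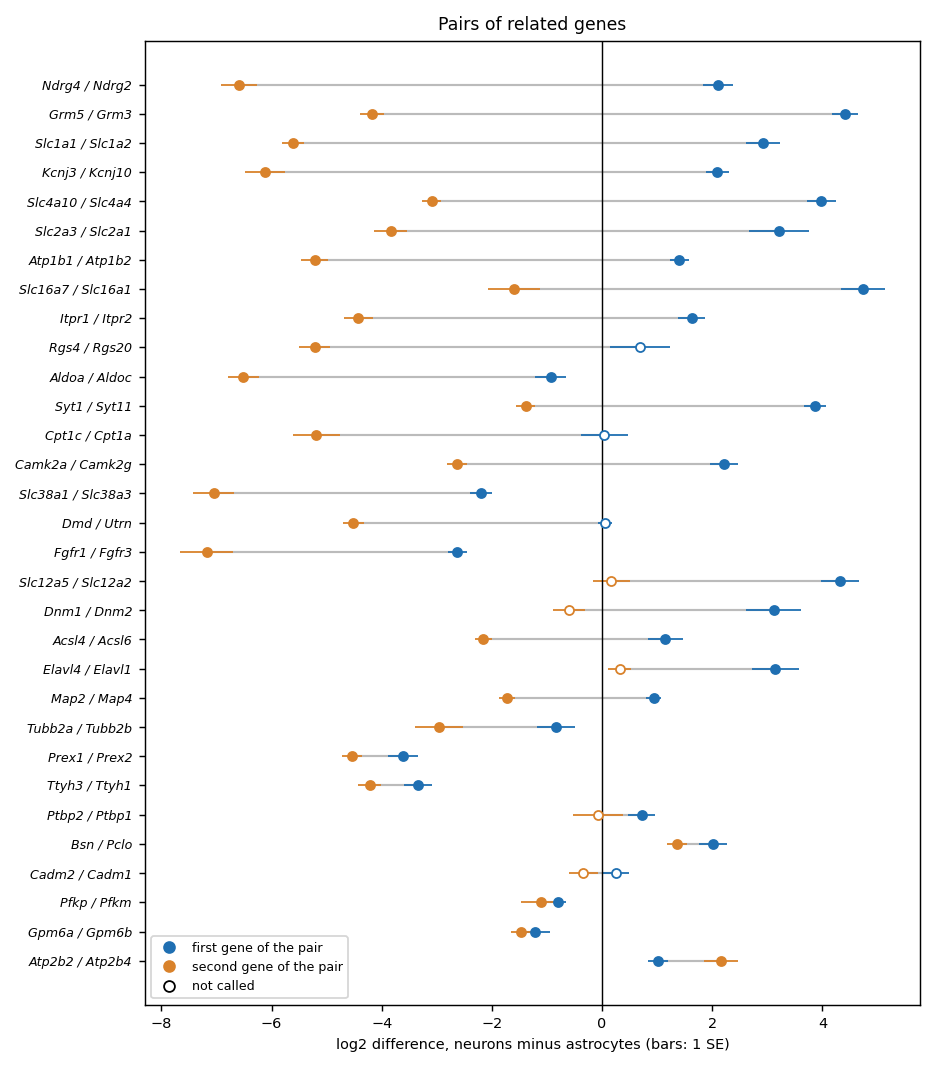
Log2 difference (neurons minus astrocytes) with 1 SE for both genes of the pairs reported here in which both could be tested, sorted by the distance between them. Pairs at the top lie on opposite sides of 0, such as Ndrg4 at 2.11 and Ndrg2 at -6.59, and open points were not called.

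In lists of lipid, carbohydrate and detoxifying metabolism, more genes were lower than higher in neurons. 17 of 18 cholesterol synthesis genes were lower and 0 higher (median -2.23), 14 of 17 genes of fatty acid oxidation (median -1.48), 20 of 29 of fatty acid and phospholipid synthesis (median -1.53, with 4 higher), 10 of 14 of glycogen metabolism (1 higher), 9 of 14 of glycolysis (1 higher), and 10 of 11 cytochrome P450 genes (median -3.58). Msmo1, a sterol oxidase, was at 8.17 to 12.7 CPM in neurons and 59.0 to 130 in astrocytes. Scd2, a fatty acid desaturase, was at 18.2 to 40.3 and 361 to 499, and Gpam, which starts glycerolipid synthesis, at 17.2 to 27.4 and 227 to 371. Ppara, a nuclear receptor that controls fatty acid oxidation, had 9 counts in neurons and was at 16.4 to 41.6 CPM in astrocytes. Cyp2j9, a P450 that acts on fatty acids, ran from 0 to 2.73 CPM in neurons and from 146 to 170 in astrocytes, a narrow range.

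Glycogen genes included Ppp1r3c, the targeting subunit of glycogen phosphatase, at 0 to 1.68 and 66.5 to 143 CPM. Phka1 and Phka2, alternative alpha subunits of phosphorylase kinase, went apart, with Phka1 at 8.96 to 22.9 and 435 to 565 CPM and Phka2 at 68.3 to 117 and 26.5 to 41.0. Aldoc, an aldolase of glycolysis, was at 2.24 to 8.40 and 213 to 486 CPM. Eno2 was the only glycolytic gene called higher in neurons, its groups overlapped, and it lost the call with limma voom (1.22 with edgeR, adjusted p = 0.0104, and 0.75 with voom, adjusted p = 0.0859). Gldc, of glycine cleavage, and Aldh1l1, of folate metabolism, differed by -5.91 (SE 0.41) and -5.004 (SE 0.41). Glud1, glutamate dehydrogenase, was at 13.4 to 36.5 and 182 to 344 CPM, and Bcat1, a branched-chain aminotransferase, was higher in neurons (2.57, SE 0.43). Peroxide and glutathione enzymes had 10 of 18 lower and 0 higher, with Prdx6 at 5.70 to 13.6 and 178 to 270 CPM.

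Transporters other than the pairs lay on both sides. Slco1c1, which carries thyroid hormone, was at 0 to 3.92 CPM in neurons and 163 to 261 in astrocytes (-7.95, SE 0.42). 14 of 25 zinc, copper and iron transporters were lower in neurons and 2 higher, with the zinc importer Slc39a12 at 1.37 to 7.84 and 179 to 281 CPM. Abca1, which exports cholesterol, was at 16.7 to 34.2 and 198 to 323. The sodium-calcium exchanger Slc24a2 was at 597 to 1073 CPM in neurons and 35.7 to 80.5 in astrocytes. Of 33 amino acid transporters 11 were higher and 14 lower, and of 20 sugar and monocarboxylate transporters 9 were higher and 7 lower. Over all 199 tested Slc genes 56 (28.1%) were higher and 73 (36.7%) lower, against 26.9% and 29.0% of all genes.

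Lists of protein and energy production differed in their share of called genes. 3 of 30 proteasome subunits were higher and 5 lower, 2 of 30 mitochondrial ribosomal protein genes were higher and 4 lower, and 1 of 12 tubulins was higher and 2 lower. Of 85 cytosolic ribosomal protein genes only 9 had enough counts to test, with 1 called in each direction. Their share of all counts was 0.0275% ± 0.00817 (SD, n = 8) in neurons and 0.0248% ± 0.00632 (n = 6; exact permutation p = 0.513), a difference within the spread. 16 of 37 nuclear respiratory chain genes were lower in neurons and 0 higher (median -0.75), and all 9 tested mitochondrially encoded genes were lower (median -2.20). ND4 was at 504 to 1828 CPM in neurons and 3379 to 8918 in astrocytes. All 13 tested tRNA genes in the annotation were lower too, and those of the mitochondrial genome were not counted apart. 23 of 30 lysosomal genes were lower and 0 higher, with the cathepsin Ctso at 5.31 to 8.96 and 59.1 to 91.0 CPM. The lists for heat shock and chaperonin genes had 10 of 63 higher and 14 lower, among the latter the stress chaperone Bag3 (-4.77, SE 0.43).

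Cytoskeletal families had members in both directions. Ank3, ankyrin-G of the axon initial segment, was at 689 to 1549 CPM in neurons and 50.8 to 131 in astrocytes, and Ank2 at 1169 to 1897 and 2348 to 3429. Map1b was higher in neurons (2.67, SE 0.21) and Map4 lower (-1.74, SE 0.14). Dync1i2, an intermediate chain of cytoplasmic dynein, was at 324 to 480 and 20.3 to 48.5 CPM, while of 16 dynein and dynactin genes only 3 were higher and 2 lower. Of 27 kinesins 7 were higher, such as Kif5c (2.09, SE 0.20), and 7 lower, such as Kif19a (-5.74, SE 0.49), close to the background shares. Myo10, a myosin of filopodia, was at 18.9 to 34.9 CPM in neurons and 333 to 652 in astrocytes. Intermediate filaments divided into Ina, with 5 counts in astrocytes and 5.70 to 25.7 CPM in neurons, and Vim, at 0 to 10.8 and 24.1 to 41.6.

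The share of genes higher in neurons differed with genomic span. Of 497 tested genes over 300 kb long 57.9% were higher and 25.6% lower, and of 1969 genes up to 10 kb long 20.6% were higher and 31.8% lower. The median span was 51.0 kb for genes higher in neurons, 29.3 kb for genes lower and 25.6 kb for genes not called. Over 10950 genes with a known span, the rank correlation of span and log2 difference was weak (Spearman rho 0.143, across genes, which are not independent replicates). The share of counts in genes over 100 kb was 25.6% ± 1.63 (SD, n = 8) in neurons and 21.1% ± 1.25 (n = 6; exact permutation p = 0.00133, adjusted p = 0.00222). With Malat1 and the mitochondrially encoded genes left out of the total, an alternative chosen after seeing the data, the shares were 33.8% ± 1.55 and 33.5% ± 1.22 (exact permutation p = 0.699).

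**Figure D5:**
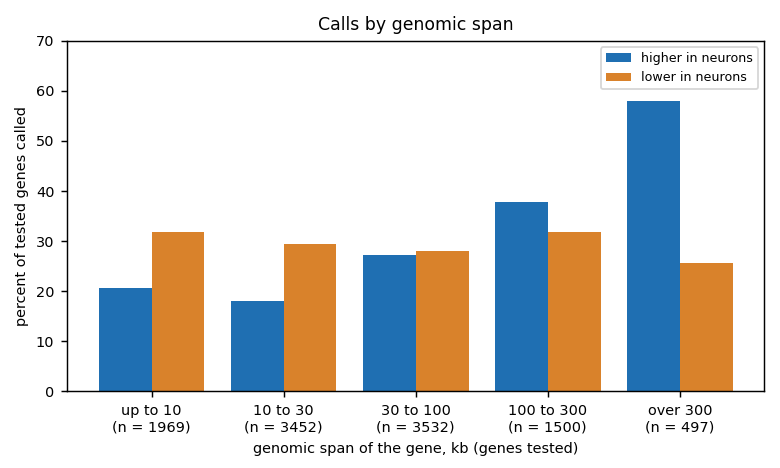
Percent of tested genes called higher or lower in neurons in 5 classes of genomic span, with the number of genes tested. The share higher in neurons is 57.9% for genes over 300 kb and 20.6% for genes up to 10 kb.

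Promoters of 5 members are shown to let the starts of genes of opposite direction be compared. They run from 250 bases before to 50 bases after the RefSeq start on GRCm38.p6, 5′ to 3′ on the strand of the gene. In the first 4 sequences capitals mark CG dinucleotides, the sites of DNA methylation in mammals. Cntn3 (chr6:102464618-102464917, minus strand, higher in neurons) held 0 of them and Slco1c1 (chr6:141524104-141524403, plus strand, lower) held 1. Cnksr2 (chrX:158043148-158043447, minus strand, higher; the start with more CG of its 2) held 52, and Qk (chr17:10319312-10319611, minus strand, lower) held 57. These 4 were picked and not drawn at random, and the median over tested genes with a promoter was 20. The Cntn3 start lies well inside the annotated span of the gene (102163304 to 102564614), and not at its outer end, and the starts shown for Cnksr2 and Gria2 also lie inside their spans, nearer to that end.
Cntn3: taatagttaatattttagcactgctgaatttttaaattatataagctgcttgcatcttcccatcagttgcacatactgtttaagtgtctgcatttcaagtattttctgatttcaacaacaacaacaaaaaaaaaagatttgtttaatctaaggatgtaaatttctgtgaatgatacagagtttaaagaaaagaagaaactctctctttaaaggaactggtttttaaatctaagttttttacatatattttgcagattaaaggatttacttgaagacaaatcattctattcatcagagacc
Slco1c1: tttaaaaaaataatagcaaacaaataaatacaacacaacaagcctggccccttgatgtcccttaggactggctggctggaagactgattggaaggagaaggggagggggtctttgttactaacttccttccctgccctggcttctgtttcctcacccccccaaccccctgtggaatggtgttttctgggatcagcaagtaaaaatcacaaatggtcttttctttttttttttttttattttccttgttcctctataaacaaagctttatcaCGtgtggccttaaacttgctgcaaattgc
Cnksr2: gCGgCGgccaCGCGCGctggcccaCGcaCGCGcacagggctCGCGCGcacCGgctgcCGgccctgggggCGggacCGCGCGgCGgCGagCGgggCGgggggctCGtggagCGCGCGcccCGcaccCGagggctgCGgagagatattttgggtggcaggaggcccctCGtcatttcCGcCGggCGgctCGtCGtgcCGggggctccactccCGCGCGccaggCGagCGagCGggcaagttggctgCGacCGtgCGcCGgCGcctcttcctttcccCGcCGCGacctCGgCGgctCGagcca
Qk: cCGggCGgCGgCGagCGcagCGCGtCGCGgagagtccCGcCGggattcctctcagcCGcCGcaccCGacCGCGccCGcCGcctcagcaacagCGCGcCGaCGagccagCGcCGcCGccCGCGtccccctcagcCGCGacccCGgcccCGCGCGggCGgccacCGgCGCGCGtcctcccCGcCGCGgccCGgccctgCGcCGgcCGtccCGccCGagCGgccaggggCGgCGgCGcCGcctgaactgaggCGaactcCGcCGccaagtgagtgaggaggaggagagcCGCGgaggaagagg
In the last sequence capitals mark a match to RE1, the site bound by the repressor REST, which silences neuronal genes outside neurons. It is the promoter of Gria2 (chr3:80802786-80803085, minus strand), an AMPA receptor subunit at 2717 to 6359 CPM in neurons and 724 to 1501 in astrocytes (1.65, SE 0.20), which was picked for this match. The match was searched on both strands, and 0.0639% of the 32851 promoters in the table hold one. It is a description of the sequence and not evidence of binding.
Gria2: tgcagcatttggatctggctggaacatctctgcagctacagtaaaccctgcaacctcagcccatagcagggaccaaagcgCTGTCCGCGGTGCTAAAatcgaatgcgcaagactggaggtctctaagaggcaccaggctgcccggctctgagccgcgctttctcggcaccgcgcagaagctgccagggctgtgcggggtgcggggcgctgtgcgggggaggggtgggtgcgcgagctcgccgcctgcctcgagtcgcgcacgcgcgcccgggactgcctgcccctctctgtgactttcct
A comparison of promoter composition between all higher and lower genes is void, because the table holds promoters for only 8592 of the 11957 genes tested (71.9%).

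Where exons of 2 genes overlap, unstranded counts cannot tell them apart, and the strand of the counting is not given in the sources used here. Of 211 genes named here and found in GENCODE vM21, 12 share over 20% of their exonic bases with another gene. Besides the protocadherins they are Rmst (38.8%), Kcnj3 (31.1%), Plcd4 (29.8%), Rpl5 (26.7%), Lrrtm4 (25.1%), Ppfia2 (24.5%), Acot11 (20.9%) and Gng2 (20.4%), whose values are uncertain in that respect.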

How the data were processed

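RNA from sorted neurons (8 libraries) and astrocytes (6 libraries) of non-transgenic mice was analysed, with the 11 libraries of hMAPT-P301S mice used only as separate libraries of the same contrast. The deposited files hold, per the file headers, counts of reads aligned uniquely to each gene model by Entrez ID, and the authors' normalized RPKM, which is per gene length and adjusted by a size factor per sample. GSNAP and GRCm38 are named in the submitters' processing notes, while the aligner version, the strand and the gene model version were not stated in any label or header. Of 36528 IDs, 5479 had no symbol in the reference table (3.45% of counts) and 6908 were at 0 in all 14 libraries. Counts were tested with edgeR 4.0.16 in R 4.3.3 (TMM scaling, filterByExpr, robust quasi-likelihood F test, Benjamini-Hochberg adjustment over 11957 genes, threshold 0.05) without covariates, after the procedure was tested on simulated data. CPM uses TMM-scaled library sizes. RPKM was used only to compare levels between genes. For 5 measures of whole libraries a 2-sided exact permutation test over 3003 splits was used, with adjusted p-values.

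The members, the 119 gene lists and the 38 pairs were chosen with earlier results of these data known. Named genes are the 12 with the smallest p in each direction (log2 difference of at least 1, outside the marker lists and unnamed or sex-linked marker genes), up to 2 per direction from each list, both genes of each pair and a few fixed markers. Some genes are not reported here. Fezf2, Cux2 and Gria2 were chosen after their values were seen. Alternatives changed the scaling, the filter, the tool, the depth, the fold threshold, a sex marker covariate and the libraries used. Promoters are from RefSeq. Intervals and floors cover counting error only.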

Additional observations from a re-analysis of the deposited data

Results flagged for a closer look

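In 434 sets of values, 212 named genes and 5 measures of whole libraries each in the 8 neuron and in the 6 astrocyte libraries, the highest or lowest library was compared with the nearest other by Dixon's criterion at 95%. Chance flags about 1 in 20 such sets, or 21.7, and 36 were flagged. Of these 23 were in neuron libraries, 9 of them in library 5 and 5 in library 8, and 13 were in astrocyte libraries.

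In neuron library 5 the lone values were 6.27 CPM for Gpc5 (13.4 to 19.6 in the other libraries), 62.1 for Egr3, 37.1 for Disp2, 611 for Fgf14, 912 for Grm5, 1296 for Lrrtm4 (443 to 676 in the others), 689 for Ank3, 10.8 for Vim and 313 for Ndrg4. In neuron library 8 they were 205 CPM for Slit1, 782 for Camk2b (146 to 360 in the others), 94.7 for Eno2, 162 for Sptbn4 and 25.7 for Ina. In neuron library 6 they were 21.8 for Glul, 5.04 for Rapgef3 and 3.92 for Slco1c1, and in neuron library 4 they were 9.27 for Gfap and 2.18 for Id3. Neuron library 2 stood apart at 95.6 for Syt11 and 553 for Ncam1, library 3 at 4.48 for Gldc and library 7 at 285 for Trpc6.

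In astrocyte library 5 the lone values were 7.29 CPM for Slit3, 265 for Grm3, 80.8 for Nrxn3 (13.4 to 31.2 in the others), 394 for Slc6a11 and 41.0 for Phka2. In astrocyte library 4 they were 7.65 for Scn1a, 11.7 for Itga8, 167 for Atp5b and 724 for Gria2. Astrocyte library 6 stood apart at 221 for Nova1, 1.40 for Sstr4 and 1844 for Dmd, and library 2 at 73.1 for Ndrg4.

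An interaction term asks whether the neuron against astrocyte difference itself differs between genotypes. In an edgeR fit of all 25 libraries it was called for 3 of 212 named genes, and for 56 of 14197 genes tested. Named genes were in large part picked by small p in the same non-Tg libraries, which can make their non-Tg differences too large. In all 3 genes the difference was smaller in P301S, and the part of this choice was not tested. The difference in P301S minus that in non-Tg mice was -1.21 for Erc2 (5.13 in non-Tg and 3.89 in P301S, adjusted p = 0.0457), -2.68 for Plcl2 (4.60 and 1.90, adjusted p = 0.0361) and -1.62 for Chl1 (3.48 and 1.83, adjusted p = 0.0361).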

How the results depend on the processing

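Tested against a log2 difference of 1 in place of 0, 1979 genes were higher and 1812 lower in neurons, and with no filter on low counts 4930 and 5447, of 29620 tested. The other scalings, filters, tools and sets of libraries gave counts within 1.5 times the reported ones, and leaving out each library in turn gave 3022 to 3282 higher and 3132 to 3511 lower. Which direction held more genes depended on the scaling, the filter, the depth and the fold threshold. A filter at 1 CPM in 6 libraries gave 4252 higher and 4228 lower, and libraries thinned to the smallest gave 2828 and 2828. With RLE size factors in place of TMM 3455 were higher and 3176 lower, and with the tool DESeq2 3567 and 3281. Without thinning, the difference in genes detected was 965.5 (adjusted p = 0.38). Without Malat1 and the mitochondrially encoded genes in the total, chosen after seeing the data, the difference in the share of genes over 100 kb was 0.312 percentage points (adjusted p = 0.699). The cause of neither change was tested. With a sex marker covariate 5675 of the 6681 called genes kept call and direction, and 4 changed sign. Whether the sexes were balanced between the groups was not tested. Mapt and Dmd, not called, changed sign: Mapt was -0.17 with limma voom and -0.23 without neuron libraries 5 and 8, and Dmd was -0.005 with a sex marker covariate. Of 210 named genes called, 199 kept sign and call in every one of the 25 settings in which each could be tested. Among the 210, 0 changed sign. Cux2 and Rpl5 lost the call without 1 library. The smallest libraries limit low genes, since 3 counts are up to 2.41 CPM. No paired analysis was possible because the labels number no replicates and tie no library to an animal, and the library numbers used here are only names.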
